A study of Homo sapiens with 12 samples.

Results

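The nuclear-encoded subunits of oxidative phosphorylation were examined in HD-MyZ, a cell line derived from Hodgkin lymphoma, as 77 genes of the 18852 that the arrays measured with a named probe. The members were taken by gene symbol alone (the NDUFA, NDUFB, NDUFC, NDUFS and NDUFV subunits, the SDH, UQCR and CYC1 genes, COX4 to COX8 and the ATP5 genes), with 2 pseudogenes and the NDUFAF assembly factors left out. Complex I gave 32 members, complex II 3, complex III 9, complex IV 16 and complex V 17. Cells were left untreated (control) or received 10 µM perifosine, an alkylphospholipid that inhibits AKT, 5 µM sorafenib, a multikinase inhibitor, or both together (combination). All 4 groups were taken at 24 hours, each with 3 arrays lettered A, B and C, so that 12 Illumina beadchip arrays were compared. All groups came from 1 cell line, and the labels do not say that the letters stand for separate cultures, so that p-values reflect only how far these arrays differ, a spread that may be technical. The gene for NDUFA4 is annotated under another symbol (COXFA4), and COX7A2L was not analysed here.

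Oxidative phosphorylation takes place in the inner mitochondrial membrane. Complexes I and II pass electrons from NADH and succinate to coenzyme Q, complex III passes them on to cytochrome c, complex IV hands them to oxygen, and complex V (ATP synthase) uses the proton gradient that results to make ATP. Each complex other than II also holds subunits encoded in mitochondrial DNA. The genes below are the nuclear share, whose promoters are known to be bound by NRF1, GABP (an ETS factor) and YY1.

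Promoter sequence is shown for 4 members described below, NDUFA13 and NDUFA3 with the largest spread between arrays of a group and SDHA and ATP5F1A with a small one for members of their brightness (mean log2 intensity of at least 9). Each run is the 250 bases before the annotated start in RefSeq (GRCh38.p14), 5′ to 3′ on the gene's strand, and capitals mark matches to the motifs searched on both strands: GCATGCGC (NRF1), AAGATGG (YY1), CCGGAAG (ETS, as bound by GABP) and GCGCANGCG. The last is a wider NRF1 form that overlaps the first and was added after these sequences had been read. The windows are chr19:19515975-19516224 (plus strand) for NDUFA13, chr19:54102605-54102854 (plus) for NDUFA3, chr5:218070-218319 (plus) for SDHA and chr18:46104228-46104477 (minus) for ATP5F1A.
NDUFA13: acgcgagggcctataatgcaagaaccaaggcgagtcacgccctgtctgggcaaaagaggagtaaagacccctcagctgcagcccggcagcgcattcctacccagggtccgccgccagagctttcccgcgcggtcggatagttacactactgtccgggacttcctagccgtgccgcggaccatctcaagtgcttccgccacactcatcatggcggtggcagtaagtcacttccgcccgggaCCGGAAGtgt
NDUFA3: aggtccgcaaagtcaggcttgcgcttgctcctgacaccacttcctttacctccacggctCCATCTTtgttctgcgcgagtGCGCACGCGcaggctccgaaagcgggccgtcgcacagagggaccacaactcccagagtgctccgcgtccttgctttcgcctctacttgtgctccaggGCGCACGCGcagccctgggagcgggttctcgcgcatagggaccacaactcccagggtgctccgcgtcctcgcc
SDHA: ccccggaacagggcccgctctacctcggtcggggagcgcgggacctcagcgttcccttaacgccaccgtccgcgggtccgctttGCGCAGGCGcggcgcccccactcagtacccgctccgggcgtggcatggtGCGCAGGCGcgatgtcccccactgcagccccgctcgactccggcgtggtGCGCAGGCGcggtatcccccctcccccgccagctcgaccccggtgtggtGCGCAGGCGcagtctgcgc
ATP5F1A: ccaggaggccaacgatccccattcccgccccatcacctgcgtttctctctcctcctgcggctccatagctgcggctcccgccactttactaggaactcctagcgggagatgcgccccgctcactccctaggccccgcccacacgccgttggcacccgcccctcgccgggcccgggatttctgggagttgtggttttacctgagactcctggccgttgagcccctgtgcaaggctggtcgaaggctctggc
NDUFA13 held 1 ETS match. NDUFA3 held 1 YY1 match on the other strand and 2 of the wider NRF1 form, SDHA held 4 of the wider form, and ATP5F1A held none. With the 3 motifs first searched, none of the SDHA window was marked.

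A promoter entry was found for 63 of the 77 members. The NRF1 letters GCATGCGC lay in 10 of the 63 windows (15.9%), against 2.81% of all 27305 promoters in the table. The ETS letters lay in 16 (25.4%, against 8.82%) and the YY1 letters in 4 (6.35%, against 3.77%). Any of these 3 lay in 25 windows (39.7%, against 14.4%). The wider NRF1 form, chosen after the sequences were seen, lay in 19 (30.2%, against 7.02%), and with it 33 windows held any motif (52.4%, against 18.5%). Among the 22 brighter members with the smallest spread, 16 had a window and 5 of these held any of the first 3 motifs (31.2%), and among the 22 with the largest, 19 had a window and 9 did (47.4%). With the wider form these became 9 of 16 (56.2%) and 11 of 19 (57.9%). These matches describe letters and no binding was measured.

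The samples were checked against markers before the members were read. FSCN1 (fascin, an actin bundling protein of Hodgkin cells) ran from 51046 to 66418 in intensity units and FUT4 (the CD15 fucosyltransferase) from 1184 to 2073, while TNFRSF8 (CD30) lay at 252 to 308, near the median of the whole scale (322). Of the other Hodgkin cell genes read, TRAF1 (639 to 1563) and JUNB (589 to 2565) lay above that median. CCL17 (221 to 292) lay below it and IRF4 (269 to 414) around it. The B cell genes PAX5 and CD79A, the T cell genes CD3E and CD2 and the monocyte genes CD14 and CSF1R stayed at or below 400, with MS4A1 (366 to 486) and LYZ (349 to 412) slightly above. COL1A2 (a fibrillar collagen chain, 19934 to 64687) and KRT19 (a keratin, 2687 to 6313) were well above that. The fibroblast genes COL1A1 (1436 to 6259) and THY1 (3367 to 9588) were too, but LUM (221 to 298) was not. Of the epithelial genes other than KRT19, EPCAM ran from 328 to 536 and CDH1 from 226 to 280. In bulk RNA such as this, fewer cells of a type and less RNA per cell cannot be told apart.

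Over all genes, 3 arrays stood apart from their group mates. The mean correlation of control C with its mates was lower by 0.008861 than that of the mates with each other, that of sorafenib B by 0.03073 and that of combination A by 0.008643. An array was taken to stand apart above a gap of 0.005, a limit set after the correlations had been seen, and the results below are given with all 12 arrays and with the other 9, which leave 2 arrays in each group but perifosine, with 3.

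The members lay low in these 3 arrays. Each array was compared with the mean of its 2 group mates on the log2 scale, and the median deviation over the 77 members was -0.82 for control C. It was -1.24 for sorafenib B and -0.84 for combination A. The 3 perifosine arrays lay at 0.01, -0.01 and 0.03, and the remaining 6 arrays, each compared with a pair that held a low array, lay between 0.28 and 0.60. The median of all genes stayed between -0.02 and 0.02 in every array. In control C 34 of the 77 members were at least 2-fold lower than the mean of their mates, where 1.49% of all genes were. In sorafenib B 45 were, against 5.69% of all genes, and in combination A 35, against 1.93%. Most members are bright, so the same counts were read among genes of mean log2 at least 9. In control C, sorafenib B and combination A they were 279, 1071 and 362 of 9587 such genes. Among the 67 members of that brightness they were 34, 45 and 35. In the other 9 arrays no member was at least 2-fold lower, and the highest share of all genes there was 0.117% (sorafenib A). Sorafenib B held 5 members at least 4-fold lower, control C held 3 and combination A held 0. These shares describe single arrays and carry no test.

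**Figure D1:**
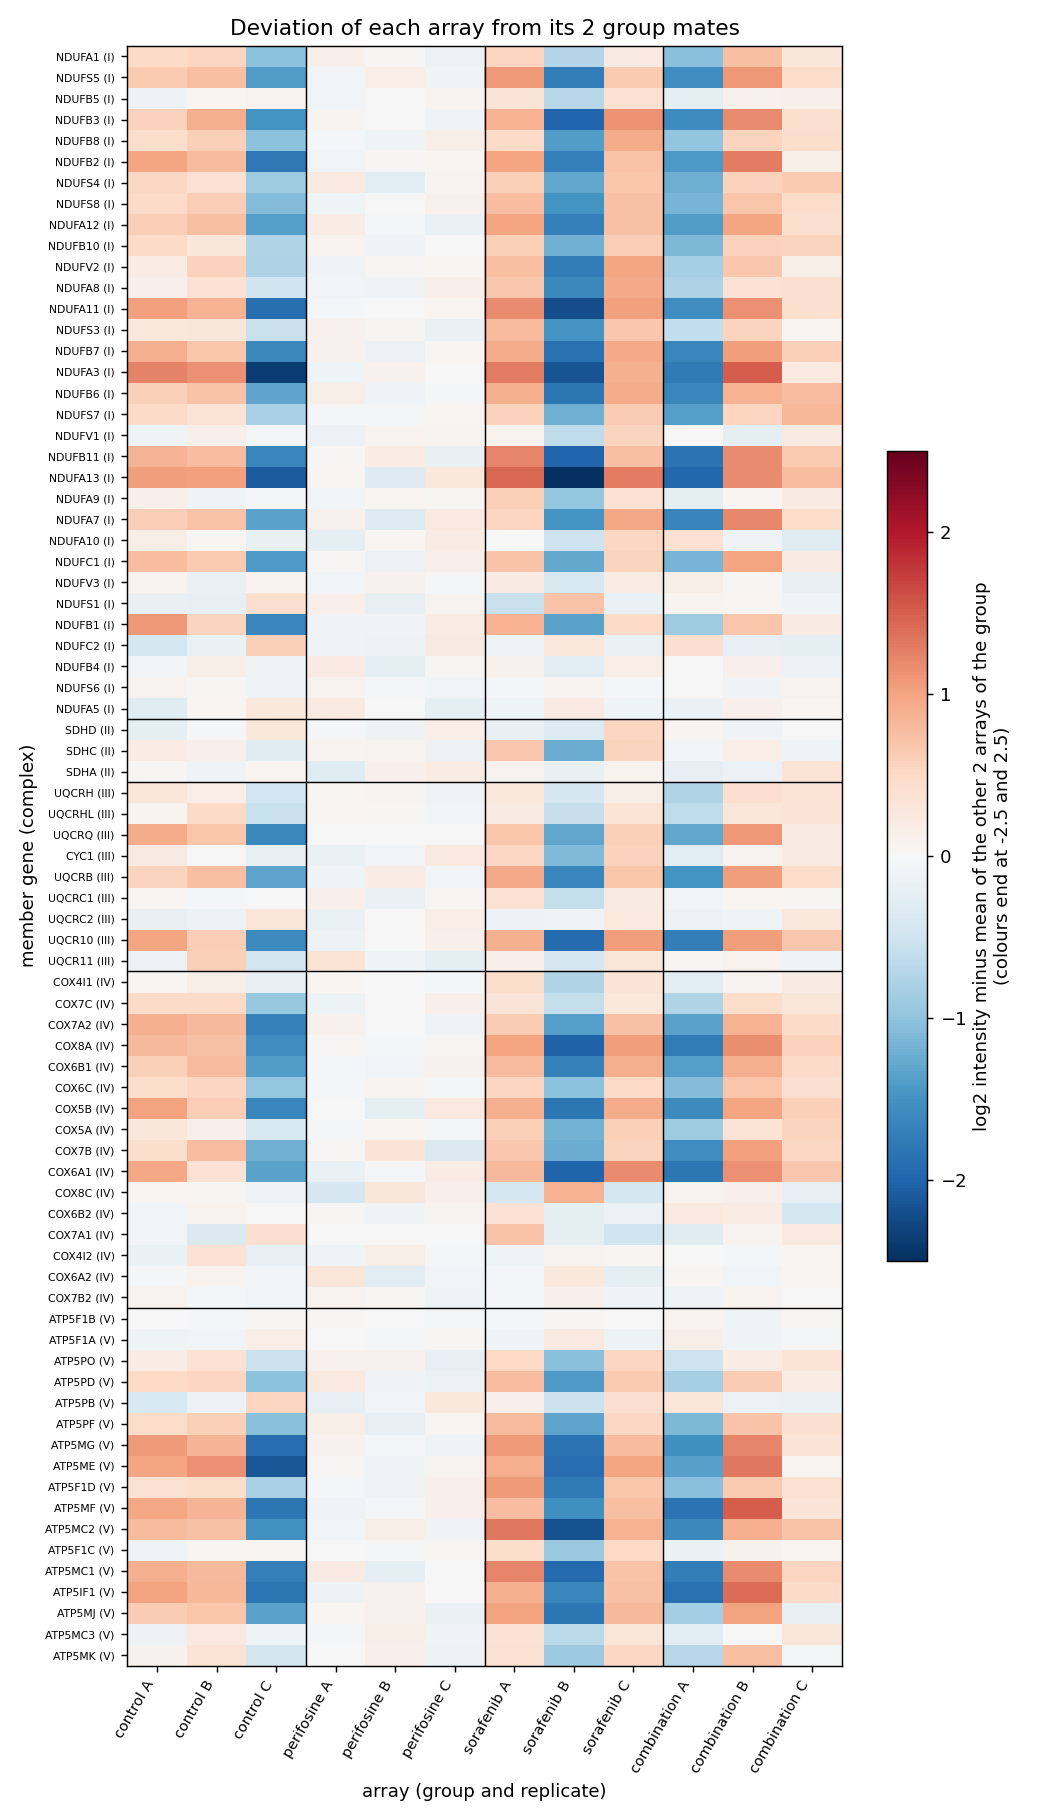
Each row is 1 of the 77 members, grouped by complex (in brackets) and ordered by brightness within it, and each column is 1 array; colour gives the log2 intensity minus the mean of the other 2 arrays of the group. Control C, sorafenib B and combination A form blue columns across complexes I, III, IV and V, with median deviations of -0.82, -1.24 and -0.84, while the perifosine arrays are nearly white.

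NDUFA13, an accessory subunit of complex I, had the largest spread, with a residual SD about its group means of 1.14 log2 units over the 12 arrays. Its intensity was 11752, 11642 and 2757 in control A, B and C, 11321, 9525 and 12487 in the perifosine arrays, 14133, 2082 and 13085 in the sorafenib arrays and 3162, 13483 and 11179 in the combination arrays. The 3 low values belong to the arrays that stood apart, and the other 9 lay between 9525 and 14133. Among those 9, both sorafenib arrays (14133 and 13085) lay above every control and perifosine array. The combination arrays (13483 and 11179) overlapped the other groups. NDUFA3, another accessory subunit (residual SD 1.08), read 15882, 15242 and 2985 in control, 14355, 15816 and 15200 with perifosine, 19090, 3937 and 15913 with sorafenib and 3510, 15906 and 8827 with both drugs. Combination C, which is among the 9 arrays, was also low for this gene. Over the 77 members its median deviation was 0.28, against 0.57 for combination B. In combination B 21 members were at least 2-fold higher than the mean of their mates, and in combination C 0 were. NDUFA11 (0.96), ATP5ME (0.94), NDUFB11 (0.92) and ATP5IF1 (0.91) completed the 6 most variable members. ATP5ME, a membrane subunit of ATP synthase, read 36138 and 38730 in control A and B and 8544 in control C.

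**Figure D2:**
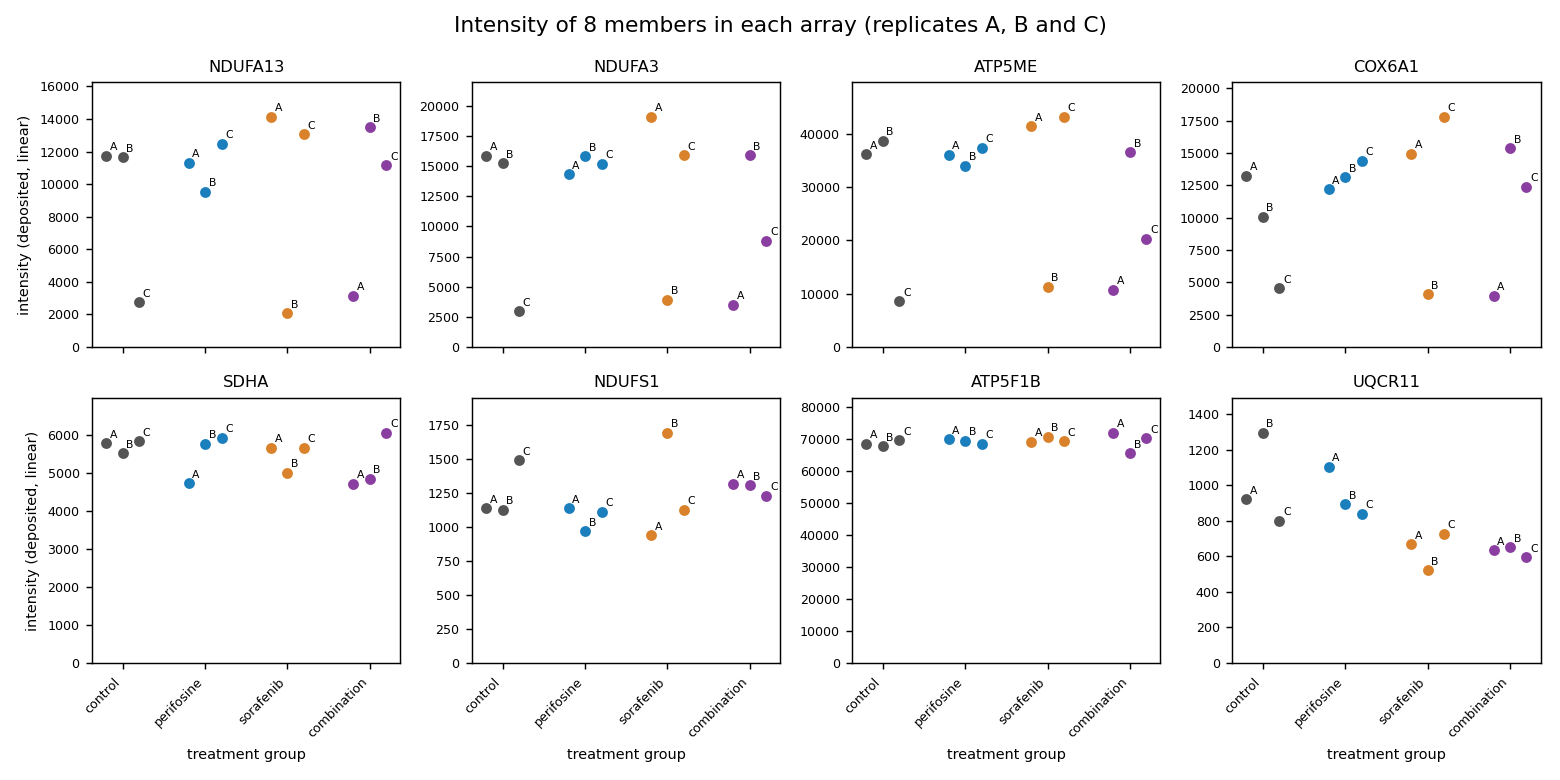
Deposited linear intensity of 8 members (axes start at 0), 1 point per array, lettered by replicate and set out by treatment group. NDUFA13, NDUFA3, ATP5ME and COX6A1 are low in control C, sorafenib B and combination A, SDHA and ATP5F1B are level, NDUFS1 is high in control C and sorafenib B, and UQCR11 is lower in the sorafenib and combination groups.

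At the other end, among members of mean log2 at least 9, ATP5F1B, the catalytic beta subunit of ATP synthase, had a residual SD of 0.04 and ran from 65581 to 71906, the highest intensity in the whole table. ATP5F1A, the alpha subunit (0.09), was higher in the 3 arrays that stood apart, at 69011, 68093 and 68051, than in the other 9 (57883 to 62312). This too lies near the top of the scale. SDHA, the flavoprotein of complex II, is not near it: its values were 5792, 5519 and 5845 in control, 4739, 5773 and 5930 with perifosine, 5664, 5009 and 5666 with sorafenib and 4719, 4853 and 6063 with both (residual SD 0.14). NDUFV3 (0.14), an accessory subunit of complex I, UQCRC2 (0.15), a core protein of complex III, and SDHD (0.18), a membrane anchor of complex II, were as steady, and UQCRC1 stood at 0.18 as well.

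Complex I. The median deviation of the 32 members was -0.95 (control C), -1.37 (sorafenib B) and -1.09 (combination A). The 22 brighter accessory subunits (mean log2 intensity of at least 9) lay at -1.35, -1.56 and -1.31, and the 6 core subunits, which carry the catalytic centres, at -0.66, -1.33 and -0.72. The brightest were NDUFA1 (56709 to 70896 in the 9 arrays, 30720, 37921 and 30825 in the 3) and NDUFS5, where the 9 lay at 43905 and above except combination C (37717) and the 3 at 16988, 15868 and 14938. NDUFS1, the largest core subunit with iron-sulfur clusters, went the other way, with 1491 in control C against 1139 and 1127 in its mates and 1694 in sorafenib B against 938 and 1126. NDUFC2 was dim throughout (353 to 664) and also higher in control C.

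Complexes II and III. The 3 complex II members had medians of 0.05, -0.35 and -0.06 in the same order, and SDHC, the other membrane anchor, read 2794 in sorafenib B against 6784 and 6399 in its mates, a deviation of -1.24 where a second SDHC probe gave 0.07. The 9 complex III members had medians of -0.47, -0.60 and -0.64. UQCR10, a small subunit, read 1757, 1230 and 1195 in the 3 arrays and 3636 to 5795 in the 9. UQCRH, the hinge protein, read 46008, 47496 and 40236 there and 61609 to 70372 elsewhere. A second, dimmer UQCRH probe (mean log2 12.72, against 15.87) deviated by -1.74, -1.30 and -1.38, where the brighter one deviated by -0.47, -0.42 and -0.76. UQCRHL is a near copy of UQCRH, and its values (38293 to 70440) may hold signal of UQCRH.

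Complex IV. In complex IV the 10 subunits found in most tissues lay at -1.28, -1.30 and -1.36. The 6 isoforms restricted to particular tissues (COX4I2, COX6A2, COX6B2, COX7A1, COX7B2 and COX8C) were all dim, from 215 to 497, and had medians of -0.06, 0.10 and 0.01. COX6A1 read 13255, 10057 and 4558 in control, 12191, 13108 and 14399 with perifosine, 14929, 4085 and 17791 with sorafenib and 3958, 15386 and 12389 with both, and COX6A2 stayed at 225 to 296. COX4I1 (51602 to 68063, and 39072 in sorafenib B) and COX7C (63284 to 71027 in the 9 arrays, 34471, 44847 and 38972 in the 3) were the brightest. COX6B1, COX7A2, COX7B and COX8A were each lower in the 3 arrays than in any of the 9.

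Complex V. Medians were -1.03, -1.42 and -0.84. The c-ring subunit is encoded by 3 genes: ATP5MC1 read 5999, 4155 and 3911 in the 3 arrays and 11057 to 20013 in the 9, ATP5MC2 read 7989, 5848 and 8106 against 21155 to 29357, and ATP5MC3 ran from 1321 to 2945 with a residual SD of 0.23. ATP5PB, a stalk subunit, was higher in control C (60755, against 39641 and 44250) and combination A (52662, against 42771 and 42328) but lower in sorafenib B (28820, against 39072 and 44250). ATP5IF1, the inhibitor of the synthase, read 2133, 2938 and 2334 in the 3 arrays and 6632 to 10613 in the 9. Its second, dimmer probe (mean log2 10.44) deviated by -0.48, -0.05 and 0.15, where the probe used deviated by -1.83, -1.63 and -1.87.

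Probes of 1 gene did not always move together. Among members whose probe was at least 2-fold lower in all 3 arrays, 13 further probes had a mean log2 of at least 9, and 6 of these were also at least 2-fold lower in all 3 (ATP5ME, ATP5MF, both of ATP5PF, NDUFB3 and NDUFB6). The other 7 were not (ATP5IF1, ATP5MC1, ATP5MC2, ATP5MG, both of UQCR10, and UQCRB). Of these, the probes of ATP5MC1, ATP5MC2, ATP5MG and UQCR10 were still lower in all 3 arrays, but not by 2-fold in each. The ATP5IF1 probe was not lower in combination A (0.15), nor the UQCRB probe in control C (0.03). The brightest probe of each gene is the one reported here, and why probes differed was not tested.

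**Figure D3:**
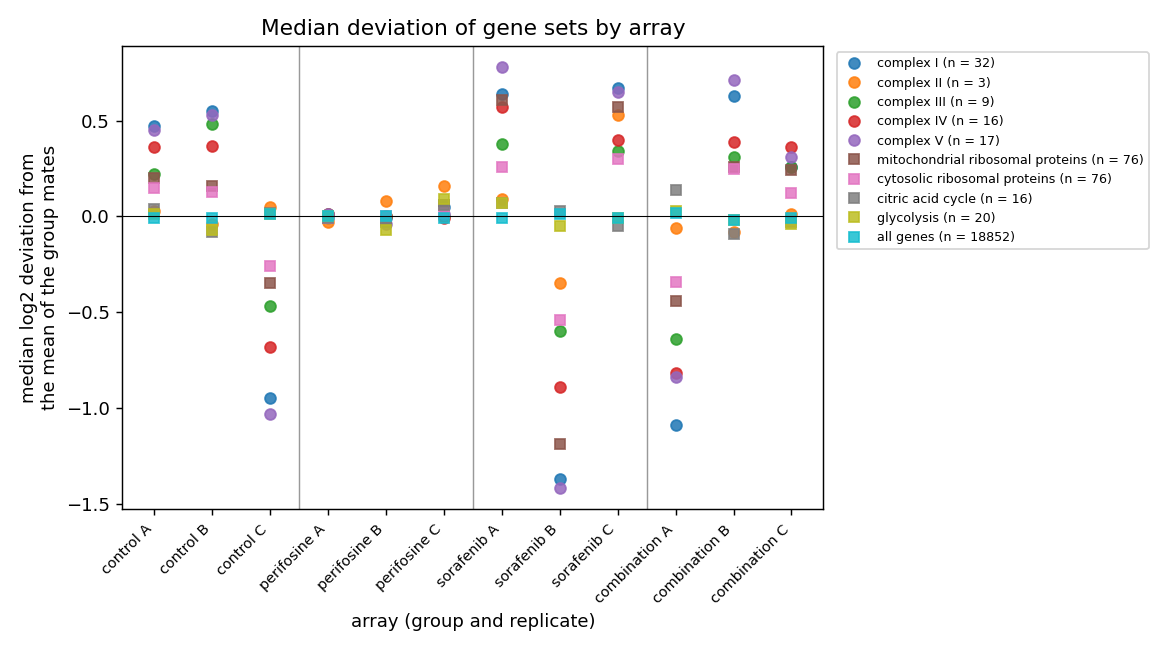
Median log2 deviation from the group mates (vertical axis) of each complex (circles) and of comparison lists (squares) in each array. Complexes I, III, IV and V lie below 0 in control C, sorafenib B and combination A, with the ribosomal protein lists also below and the citric acid cycle, glycolysis and all genes near 0.

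Other gene lists were compared in the same 3 arrays. The 76 mitochondrial ribosomal proteins had medians of -0.35, -1.19 and -0.44 in control C, sorafenib B and combination A, the 76 cytosolic ribosomal proteins -0.26, -0.54 and -0.34, and the 46 measured assembly factors -0.10, -0.65 and -0.13. At least 2-fold lower, in the same order, were 14, 47 and 21 of the mitochondrial ribosomal proteins. The counts were 15, 23 and 19 for the cytosolic ones and 7, 16 and 8 for the assembly factors. The citric acid cycle (16 genes: 0.02, 0.03 and 0.14) and glycolysis (20 genes: 0.01, -0.05 and 0.03) stayed near 0. Over the 12 arrays, residuals of 49 of the 67 brighter members correlated at 0.9 or above with the median of the other members. Of the 9587 genes of that brightness, members included, 10.5% did so with the members' median and 9.66% ran against it as strongly. All 12 points are residuals about 4 group means and the 3 arrays that stood apart set most of their range: over the 9 arrays the median correlation was 0.54 (from -0.96 to 0.99) and 9 members reached 0.9. The non-members whose residuals were most alike, among 7508 genes and over 12 arrays, were MRPL54, MRPL36 and MRPL14 (0.997 each), DYNLRB1, MRPL51, ATP6V1F, RPS14 and MRPL23 (0.996) and POLE4 and LSM7 (0.995). Those most opposed were STT3A (-0.993), DNMT1 and EXOSC10 (-0.992), PAM (-0.991) and EZR (-0.99).

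None of the 77 members passed the test in any treatment comparison with all 12 arrays. Perifosine against control asks what AKT-directed treatment alone did; limma's moderated test with Benjamini-Hochberg adjustment over all genes called 0 members, where 0.297% of genes were called, and 1 member had an unadjusted p under 0.05. The members' median log2 change was 0.22 (from -0.42 to 0.75, 56 of 77 above 0), and the median of all genes was -0.002. The highest were NDUFA3 (0.75 ± 0.74 SE, n = 3 arrays a group in each fit of 12), ATP5ME (0.65 ± 0.64) and COX6A1 (0.64 ± 0.60). Without the 3 arrays that stood apart NDUFA3 was at -0.04 and ATP5ME at -0.06, so the direction turned, and COX6A1 was at 0.19. The lowest were NDUFC2 (-0.42 ± 0.18), ATP5MC3 (-0.27 ± 0.18) and UQCRC2 (-0.27 ± 0.13). The members' median rested on 1 array: without control C it was -0.06. Without the 3 arrays that stood apart, 0 members were again called, where 1.55% of genes were.

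Sorafenib against control called 0 members, where 2.25% of genes were called, and 5 members had an unadjusted p under 0.05. The median change was -0.05 (from -0.64 to 0.33), and it was -0.37 without control C and 0.27 without sorafenib B. UQCR11, a small complex III subunit, had the lowest adjusted p of the members (0.10). It read 920, 1295 and 800 in control, 1103, 894 and 838 with perifosine, 668, 520 and 727 with sorafenib and 633, 650 and 594 with both drugs. All 6 arrays with sorafenib lay below all 6 without it, and the change was -0.64 (95% interval -1.04 to -0.24) with sorafenib and -0.66 (-1.06 to -0.25, adjusted p = 0.108, limma) with both. ATP5MC3 (-0.54 ± 0.18) and NDUFV2 (-0.59 ± 0.42) followed at the low end, and ATP5IF1 (0.33 ± 0.62), COX5B (0.29 ± 0.58) and COX6A1 (0.28 ± 0.60) were the highest. Over the 9 arrays 0 members were called, where 4.65% of genes were.

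The combination against control called 0 members, where 1.82% of genes were called, with 2 at an unadjusted p under 0.05. The median change was -0.04 (from -0.66 to 0.23), and it was -0.31 without control C and 0.19 without combination A. NDUFV1 (0.23 ± 0.17), COX6B2 (0.21 ± 0.14) and NDUFS7 (0.18 ± 0.40) were highest, and UQCR11, ATP5MC1 (-0.61 ± 0.62) and NDUFB1 (-0.49 ± 0.47) lowest. Over the 9 arrays, where 5.9% of genes were called, 3 members were called, all lower: UQCR11 by -0.81 (adjusted p = 0.0155, limma), NDUFB1 by -0.74 (adjusted p = 0.0167) and ATP5MC1 by -0.61 (adjusted p = 0.0475). In these arrays ATP5MC1 read 19324 and 20013 in control and 11057 (combination C) and 14990 (combination B) with both drugs. NDUFB1, an accessory subunit, read 910 and 1156 in control against 548 (combination C) and 687 (combination B).

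**Figure D4:**
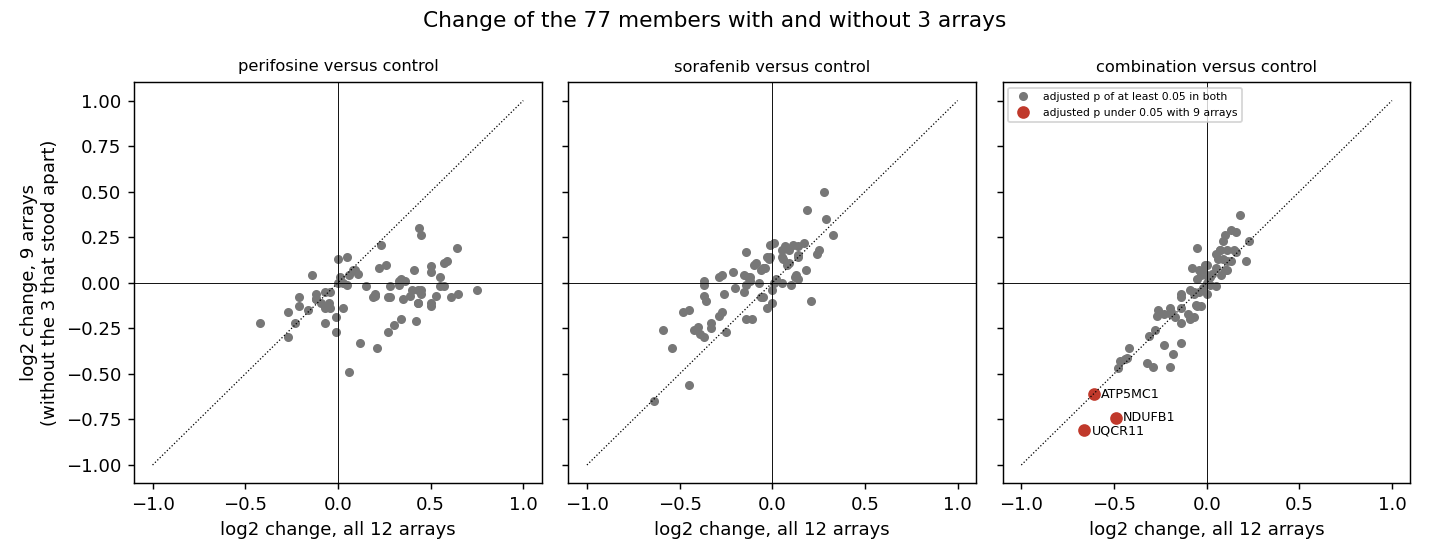
Log2 change against control for each of the 77 members, with all 12 arrays (horizontal) and without the 3 arrays that stood apart (vertical), 1 panel per treatment; the dotted line marks equal values. For perifosine the horizontal spread, from -0.42 to 0.75, shrinks on the vertical axis, and the 3 members called with 9 arrays in the combination are named in red.

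Sorafenib added to perifosine (combination against perifosine) called 0 members, where 2.2% of genes were called, and 2 had an unadjusted p under 0.05. The median change was -0.29 with 12 arrays (16 of 77 above 0) and -0.02 with 9 (35 of 77 above 0). With 12 arrays UQCRC2 (0.40 ± 0.13), NDUFV1 (0.28 ± 0.17) and NDUFS1 (0.26 ± 0.19) were highest and ATP5MF (-0.95 ± 0.61), NDUFA3 (-0.94 ± 0.74) and NDUFA12 (-0.87 ± 0.52) lowest. With 9 arrays the last 3 were at -0.34, -0.35 and -0.40. Over the 9 arrays, where 6.92% of genes were called, 4 members were: NDUFB10 (0.55, adjusted p = 0.00622, limma), UQCRC2 (0.45, adjusted p = 0.0463) and NDUFS7 (0.44, adjusted p = 0.0243) were higher and UQCR11 (-0.60, adjusted p = 0.038) lower. NDUFB10 read 18662, 17206 and 17905 with perifosine and 26287 and 26120 with both drugs in those arrays. This comparison shares the combination arrays with the one before it.

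Perifosine added to sorafenib (combination against sorafenib) called 0 of 18852 genes by limma (0%), with 12 arrays and with 9, and the unadjusted p was under 0.05 for 3.41% of genes and 0 members with 12. The median change of the members was 0.01. The interaction, which asks whether the perifosine change differed with sorafenib present, called 0 members, where 0.0159% of genes were called, and 3 members had an unadjusted p under 0.05. Its median was -0.23, from -1.18 ± 1.04 (NDUFA3) to 0.59 ± 0.25 (NDUFC2). Over the 9 arrays the median was -0.02, from -0.57 to 0.52, and the interaction again called 0 members, where 0.0106% of genes were called.

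Around the subunits, the pathway lists were read against the share of all genes called, 2.25% for sorafenib and 1.82% for the combination with 12 arrays, and no count below was tested against it. Of 46 measured assembly factors 1 was lower with sorafenib and with the combination, TMEM70, which helps assemble ATP synthase (-0.75, adjusted p = 0.0107, and -0.71, adjusted p = 0.0148, limma). Over the 9 arrays it was lower in both again (-0.87, adjusted p = 0.00167, and -0.93, adjusted p = 0.000802) and also with perifosine alone (-0.64, adjusted p = 0.00779). Of 16 citric acid cycle genes, IDH3A, a catalytic subunit of isocitrate dehydrogenase, was lower with sorafenib and with the combination (-0.71, adjusted p = 0.047, and -0.87, adjusted p = 0.021), and over the 9 arrays too (-0.89, adjusted p = 0.00275, and -1.02, adjusted p = 0.000865).

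Of 14 genes of mitochondrial DNA maintenance, MTERF3 was lower with sorafenib with 12 arrays (-0.52, adjusted p = 0.0363, limma). That call was lost over the 9, where MTERF3 was called lower with the combination (-0.44, adjusted p = 0.049). Of 20 glycolysis genes, SLC2A1, the glucose transporter GLUT1, was lower with sorafenib (-0.73, adjusted p = 0.0363), a call also lost over the 9, and with the combination (-0.81, adjusted p = 0.026, and -0.67, adjusted p = 0.0465, over the 9). With 12 arrays, perifosine alone called 0 genes of these lists, and 0 of the regulators (12), the mobile carriers and coenzyme Q enzymes (14) and both ribosomal protein lists (76 each) were called against control.

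Over the 9 arrays, where 4.65% (sorafenib) and 5.9% (combination) of genes were called, more list genes passed. Of the assembly factors, NDUFAF4 was lower with sorafenib (-0.77, adjusted p = 0.00608, limma) and with the combination (-0.81, adjusted p = 0.00374). COA4 was lower with the combination (-0.75, adjusted p = 0.0138). SDHAF4 (0.63, adjusted p = 0.034) and COX19 (0.53, adjusted p = 0.0427) were higher with sorafenib. Of the glycolysis genes, PFKFB3 was lower with sorafenib (-0.52, adjusted p = 0.0366) and PGAM1 with the combination (-0.58, adjusted p = 0.0259). ESRRA, a nuclear receptor that drives respiratory genes, was lower with sorafenib (-0.63, adjusted p = 0.0224, limma) and with the combination (-0.52, adjusted p = 0.0437), and GABPB1, a subunit of GABP, was lower with the combination (-0.57, adjusted p = 0.0188). ETFDH, which feeds electrons into coenzyme Q, was higher in both (0.70, adjusted p = 0.00742, and 0.73, adjusted p = 0.00464), and PDSS1, an enzyme of coenzyme Q synthesis, was lower with the combination (-0.60, adjusted p = 0.0167). Of the mitochondrial DNA maintenance genes, TFB2M was lower with the combination (-0.85, adjusted p = 0.0174) and POLG higher with sorafenib (0.61, adjusted p = 0.0473). Of the mitochondrial ribosomal proteins 3 were lower with sorafenib and 6 with the combination, and of the cytosolic ones 2 were higher and 2 lower with the combination. With 12 arrays, the combination against perifosine called GABPB1 lower (-0.63, adjusted p = 0.0338) and MRPS10 (0.66, adjusted p = 0.0101) and RPL37 (0.73, adjusted p = 0.041) higher.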

How the data were processed

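The 12 beadchip arrays of biotin-labelled cRNA fell into 4 groups of 3. The deposited values are linear intensities that the authors exported after BeadStudio, named in the submitters' processing notes; version and settings are not given in the sources used here. Sorted columns differed by at most 2.35%, as after quantile normalization, and values ran from 169.9 to 71906. A further table of 12 signal and 12 detection columns, 24 in all, was not used, since its column names match no label. Of 48803 probes, 28098 carried 1 gene symbol, 13 several, and 20692 are unnamed here; the brightest probe by mean log2 stood for each of 18852 genes. limma 3.58.1 (R 4.3.3) fitted 4 group means (8 residual degrees of freedom), with adjusted p under 0.05 as a call; the code was tested on simulated data. Genes were named by a rule: every member called, the 3 highest and 3 lowest changes, the 2 brightest per complex, isoform sets, and the 6 largest and 6 smallest spreads among members of mean log2 at least 9. The members, lists and motifs were chosen with earlier results of these data known, and a wider NRF1 motif was added after the promoters were read. The labels do not say that the letters pair the arrays, and 7 of 18 same-letter pairs correlated over 0.1 (-0.67 to 0.62). The 3 arrays that stood apart carry different letters. Outside the perifosine group, same-letter pairs with 1 of them lay between -0.67 and -0.33, and those without between 0.46 and 0.62. Pairing by letter therefore cannot be read from these correlations. Precision is limited by 3 arrays a group.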

Additional observations from a re-analysis of the deposited data

How the results depend on the processing

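With 12 arrays 0 members were called in each comparison, and 119 of 126 counts under other settings stayed there; those were a repeated quantile normalization, normexp correction, median centring, a filter on dim genes, the mean of all probes, array weights, only the groups compared, the replicate block, and leaving out arrays. With array weights, 1 member was called for sorafenib and 1 for the combination against control and 2 for the combination against perifosine. Fitting only the groups compared called 1 in the last. Leaving out 1 array called 0 to 1 for the combination against control (1 without sorafenib B), and leaving out the 3 arrays that stood apart, a choice made after seeing the data, called 3 there and 4 against perifosine. With the replicate block 0 members were called in all 6 comparisons. Each group holds 1 array of each letter, so the block cannot alter the changes themselves. The medians against control (0.22, -0.05 and -0.04) therefore had to stay the same. Of single members, leave-one-out values ran across 0 for ATP5ME (-0.06 to 1.03) and NDUFA3 (-0.04 to 1.16) with perifosine, COX6A1 (-0.17 to 0.94), COX5B (-0.25 to 0.90) and ATP5IF1 (-0.28 to 0.87) with sorafenib, and NDUFS7 (-0.10 to 0.64) with the combination. Without the 3 arrays ATP5ME was -0.06 and NDUFA3 -0.04 with perifosine. The cause was not tested. The wider NRF1 motif, added after the promoters were read, raised the members' share from 15.9% to 30.2% and that of all promoters from 2.81% to 7.02%. The pooled SD of the array medians within groups, 0.63, exceeds each of the 6 median changes with 12 arrays. What the top of the intensity scale did to the brightest subunits, such as ATP5F1B, was not tested.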
